A study of Mus musculus with 8 samples.

Results

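The ADAM family (a disintegrin and metalloprotease) was examined in bulk RNA-seq of whole testis. Its members were taken by name and biotype: of the 54532 genes in the deposited table, 22046 are protein-coding, and 33 of these are called Adam followed by a number and at most 1 letter. They are described by known expression as 20 testis-restricted members, 11 members called widely expressed, *Adam7*, known from the epididymis, and *Adam28*, known from lymphoid cells and epididymis. The list called widely expressed also holds members known from the nervous system (*Adam11*, *Adam22* and *Adam23*) or leukocytes (*Adam8*). The rule reads names and biotypes and no measured value.

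The study asked what loss of *Spdya*, the gene of the telomere-bound CDK activator Speedy A, does to spermatocytes in pachynema, the stage of meiotic prophase when homologous chromosomes are fully paired. It compared 4 *Sync-Spdya* fl/fl mice (controls) with 4 *Sync-Spdya* cKO mice, with 1 library from the testis of each mouse. Both groups were juvenile males on a C57BL/6J background that carried floxed *Spdya* and received tamoxifen, which the labels date to RA7.5 and RA8.5 (days after RA) and the study's methods slightly earlier. The cKO mice also carried *Ddx4*-CreERT2, a tamoxifen-activated recombinase active in germ cells, so *Spdya* stays intact in Sertoli, Leydig and other somatic cells. In both groups spermatogenesis had been halted with an inhibitor of retinoic acid (RA) synthesis, and restarted together with RA. Testes were taken 11.5 days after RA, when the germ cells are labelled as mid-late pachytene.

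ADAM proteins are membrane-anchored, with a prodomain, a metalloprotease domain, a disintegrin domain and a cysteine-rich stalk. In the active enzymes the metalloprotease domain holds a zinc ion and releases the outer parts of other membrane proteins, such as growth factors, cytokines, cadherins and Notch. Many mammalian ADAMs are made almost only by spermatogenic cells. There they are placed on the sperm surface, and several have lost the zinc site and act in adhesion and in sperm migration into the oviduct rather than as proteases.

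The coding sequence of the zinc site is shown for the members that the results turn on, since it differs among them. In single-letter amino acid code the site reads HEXXHXXGXXH, 11 residues coded by 33 bases, with 5 fixed residues. Sequences are the sense strand 5′ to 3′ from the GENCODE vM21 coding sequences (GRCm38), at the positions that align with the site of *Adam10*. Capitals mark the codons of fixed residues that are kept. The first 3 lines are widely expressed members with all 5 fixed residues, the next 5 are testis-restricted members that keep only the glycine, and the last 2 are testis-restricted members that keep 3 (*Adam4*) or all 5 (*Adam1b*) of them.
Adam10: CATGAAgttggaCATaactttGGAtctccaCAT
Adam17: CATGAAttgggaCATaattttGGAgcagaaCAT
Adam9: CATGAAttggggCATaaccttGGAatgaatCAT
Adam2: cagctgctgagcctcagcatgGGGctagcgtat
Adam5: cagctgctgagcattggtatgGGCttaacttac
Adam32: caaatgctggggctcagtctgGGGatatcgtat
Adam3: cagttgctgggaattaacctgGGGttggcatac
Adam18: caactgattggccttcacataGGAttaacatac
Adam4: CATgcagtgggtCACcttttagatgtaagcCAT
Adam1b: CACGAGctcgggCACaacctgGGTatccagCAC
The stretch of *Adam9* lies at chr8:24990326-24990358 on the minus strand, in exon 11 of 22. In *Adam3* it lies at chr8:24707418-24707450 (minus strand, exon 11 of 22) and in *Adam18* at chr8:24647848-24647880 (minus strand, exon 11 of 20). *Adam5* has it at chr8:24806449-24806481 (minus strand, exon 11 of 21) and *Adam32* at chr8:24901501-24901533 (minus strand, exon 11 of 22). In *Adam2* it is at chr14:66053841-66053873 (minus strand, exon 11 of 21), and in *Adam17* at chr12:21336732-21336764 (minus strand, exon 12 of 20). The site of *Adam10* is split between exons 9 and 10 of 16, within chr9:70754296-70761585 on the plus strand. *Adam4* has the stretch at chr12:81420763-81420795 and *Adam1b* at chr5:121501937-121501969, both on the minus strand and in a single exon. Over all 33 members, 20 had the complete motif and 13 did not, so the family name metalloprotease covers members without the catalytic site. It was present in 11 of the 20 testis-restricted members and in 8 of the 11 widely expressed ones. The widely expressed members without it were *Adam11*, *Adam22* and *Adam23*, which are known from the nervous system as non-catalytic adhesion proteins.

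Values are FPKM as deposited, fragments counted per gene and scaled to gene length and to library size. The libraries held 13978342 to 19583091 fragments on genes. Fl/fl replicate 1 stood apart in mitochondrial fragments, at 0.464% of its total against 2.20% to 3.74% in the other 7 libraries. The level of *Spdya* gave no check of the labels, since exon 2 alone is deleted and the other exons are still counted: it was 20.8, 21.0, 23.8 and 19.7 FPKM in the fl/fl libraries and 30.5, 22.2, 26.1 and 17.7 in the cKO libraries. Groups are therefore the libraries as labelled. Fold changes are cKO minus fl/fl differences on the scale of log2(FPKM + 0.1), which understates the change of low genes, and were tested with limma over all genes that passed a filter. The filter of the study, a mean FPKM above 1 in both groups, left 12141 protein-coding genes. A wider filter, a mean FPKM above 0.1 over the 8 libraries, left 15937. Standard errors (SE) are those of the fitted fold change, and adjusted p-values are Benjamini-Hochberg values over all genes of that fit. Genes were called differentially expressed (DE) when the adjusted p was below 0.05 and the log2 fold change was above 1 in either direction. The n is 4 libraries in each group throughout.

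Of the 33 members 12 were silent or near silent at this stage. In 8 members no fragment was counted in any library: *Adam6a*, *Adam6b*, *Adam24*, *Adam26a*, *Adam26b*, *Adam29* and *Adam34* of the testis-restricted list, and *Adam7*. A count of 0 allows up to 3 fragments in a library, which is at most 0.0925 FPKM for these genes (counting error only). A further 4, *Adam20*, *Adam25*, *Adam28* and *Adam39*, had 1 to 2 fragments in some libraries and none in others. *Adam20*, *Adam25* and *Adam39* lie within 1 cluster on chromosome 8 and share long identical stretches (391 bases between *Adam20* and *Adam25*), so even these fragments cannot be placed with certainty. Another 9 members lay above 0.1 FPKM without passing the filter of the study, and 12 had a mean above 1 FPKM in both groups. Of the 20 testis-restricted members 6 passed that filter and 10 the wider one, and of the 11 widely expressed members 6 and 11 did.

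The expressed part of the family was led by *Adam2*, the beta subunit of the sperm surface protein fertilin, which ranked first in all 8 libraries. *Adam5* and *Adam10*, the main sheddase of Notch receptors and cadherins, held the second and the third place in every library. *Adam32*, *Adam17*, *Adam9* and *Adam15* followed. Summed over the list, the testis-restricted members reached 157, 111, 169 and 110 FPKM in the fl/fl libraries against 130, 90.1, 81.4 and 73.6 FPKM in the cKO libraries. The highest cKO library (replicate 1) was above fl/fl replicates 2 and 4, so the groups overlapped. The widely expressed members summed to 56.8 to 64.6 FPKM in the fl/fl libraries against 57.6 to 67.4 FPKM in the cKO libraries. Testis-restricted members thus made up 63.1% to 73.7% of the family's summed FPKM in the fl/fl libraries and 52.2% to 69.2% in the cKO libraries.

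**Figure D1:**
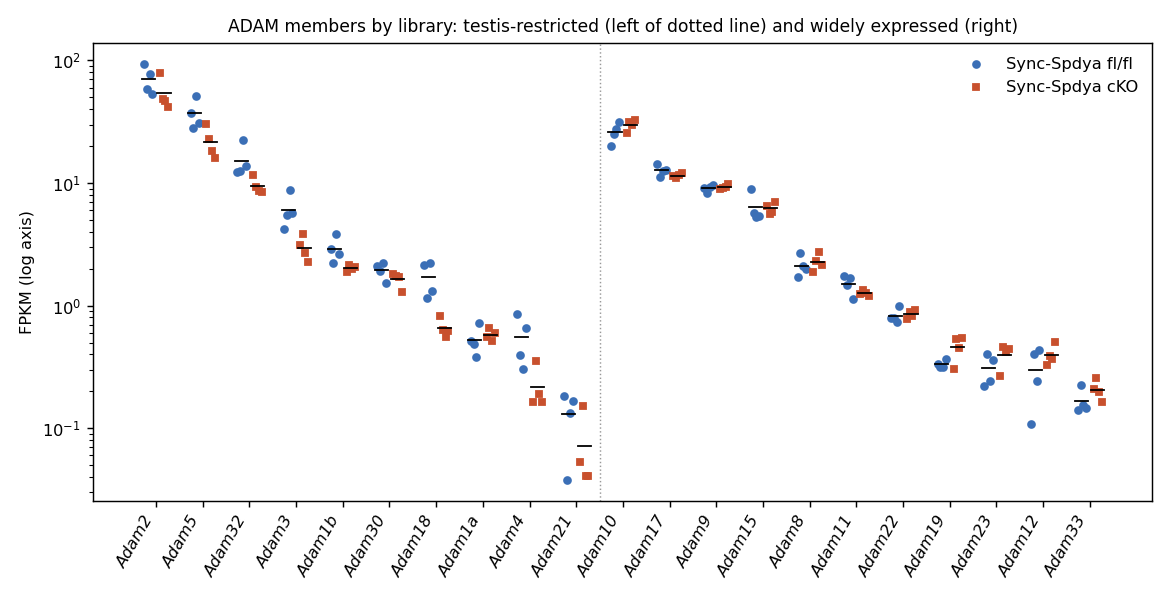
FPKM on a log axis of the 21 ADAM members with a mean above 0.1 FPKM, in each of the 4 Sync-Spdya fl/fl (circles) and 4 Sync-Spdya cKO libraries (squares), with black bars at the group means; testis-restricted members are left of the dotted line and widely expressed ones right of it, each by falling mean. The squares of Adam32, Adam3, Adam1b and Adam18 all lie below their circles, while in every widely expressed member the groups overlap.

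By limma no ADAM member was called DE and none had an adjusted p below 0.05 in either fit, nor by limma's voom on the recovered fragments. Of all 12141 genes in the fit with the filter of the study, 2 (0.0165%) were called. The study itself used another method, DESeq2, and at the same filter and thresholds it reported more DE genes, all on autosomes. At an unadjusted p below 0.05, 4 of the 12 members that passed this filter were lower in the cKO libraries (*Adam3*, *Adam32*, *Adam5* and *Adam1b*), against 5.0% of all genes tested, and 0 were higher, against 5.89%. With the wider filter 6 of 21 were lower, *Adam18* and *Adam4* in addition, against 4.86% of all genes, and 0 were higher, against 6.23%. In 4 of the 21 (*Adam3*, *Adam32*, *Adam18* and *Adam1b*) every cKO library lay below every fl/fl library, which was so for 2.55% of all genes. All 6 members were testis-restricted. Without fl/fl replicate 1 the 2 counts of lower members were again 4 and 6. Fl/fl replicates 1 and 3 had the highest testis-restricted sums. Leaving out both left 2 of 12 and 4 of 21 members lower at an unadjusted p below 0.05 (added after seeing the data). The share of all genes lower in these refits was not counted. Weighting the libraries by their residual spread gave fl/fl replicate 1 the lowest weight (0.161) and cKO replicates 3 and 2 the highest (4.45 and 2.61). It took 3 members past an adjusted p of 0.05 (limma with array weights: *Adam3* 0.0250, *Adam32* 0.0313, *Adam5* 0.0488) and 1 of them, *Adam3*, past the fold threshold. The limma adjusted p also fell for *Adam2* (0.591 to 0.180) and *Adam10* (0.654 to 0.273), but not for *Adam17* (0.666 to 0.674). The share of all genes that passed with these weights was not counted.

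The fold changes of the testis-restricted members had a median of -0.55 in both fits, and 9 of the 10 with the wider filter were below 0. The exception was *Adam1a* at 0.14. The 11 widely expressed members had a median of 0.10 in the wider fit and spanned -0.22 to 0.41, with 9 above 0. The 6 of them that passed the filter of the study had a median of 0.02. Over all genes the median was 0.01 in the fit with the filter of the study and 0.02 in the wider one. Lists were not tested against each other, since their members are not replicates. These are differences in bulk tissue, where fewer cells of a type and less RNA per cell cannot be told apart.

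**Figure D2:**
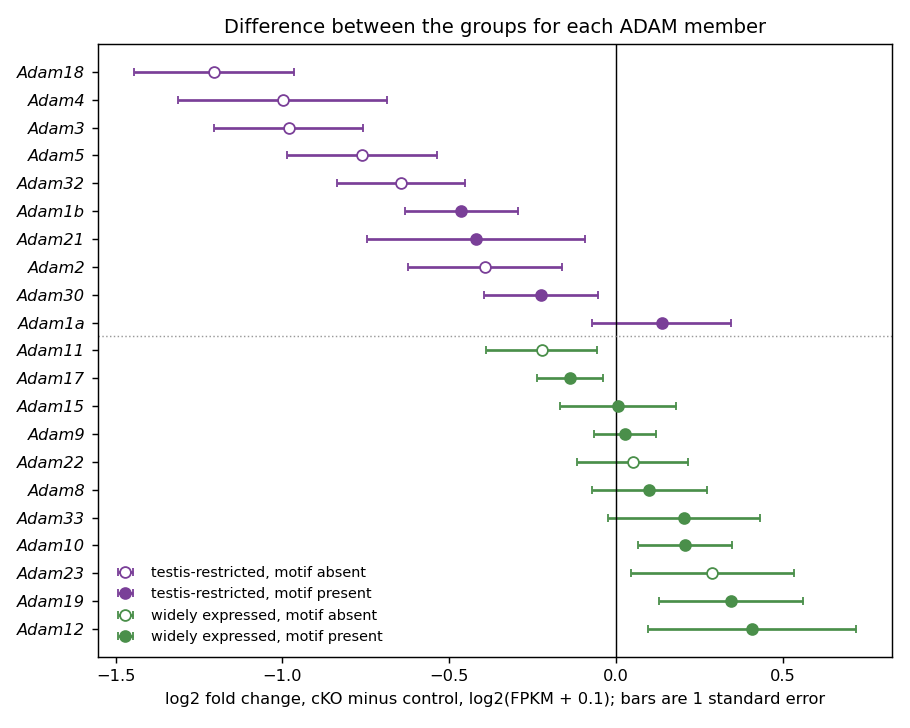
Log2 fold change (cKO minus control, on log2(FPKM + 0.1)) with 1 standard error for each of the 21 members in the wider fit, testis-restricted above the dotted line and widely expressed below it; filled circles have the complete zinc motif and open circles lack it. Of the 10 testis-restricted members 9 lie left of 0, led by Adam18 at -1.21, and of the 11 widely expressed members 9 lie right of it.

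The 3 most abundant testis-restricted members are sperm surface proteins. *Adam2* (ENSMUSG00000022039, chr14:66027329-66077733, minus strand), needed for fertilin and for several other sperm ADAMs to reach the cell surface, had 94.4, 58.5, 77.1 and 53.0 FPKM in the fl/fl libraries against 79.3, 48.6, 46.9 and 41.9 FPKM in the cKO libraries. The groups overlapped: 3 of the 4 cKO libraries were below the lowest fl/fl library and cKO replicate 1 was second highest of all 8. The log2 fold change was -0.39 (SE 0.23, limma adjusted p = 0.591), and -0.09 without fl/fl replicates 1 and 3. *Adam5* (ENSMUSG00000031554, chr8:24727093-24824369, minus strand), a non-catalytic sperm ADAM, had 37.4, 28.3, 51.3 and 30.7 FPKM in the fl/fl libraries against 30.2, 22.7, 18.2 and 16.1 FPKM in the cKO libraries. Here too 3 cKO libraries were below every fl/fl library, and cKO replicate 1 was above fl/fl replicate 2. The difference was -0.76 on the log2 scale (SE 0.23, limma adjusted p = 0.283), and -0.48 without fl/fl replicates 1 and 3. *Adam32* (ENSMUSG00000037437, chr8:24836140-24948804, minus strand), which is also of the sperm group, had 12.3, 12.6, 22.3 and 13.8 FPKM in the fl/fl libraries against 11.7, 9.27, 8.66 and 8.40 FPKM in the cKO libraries. The groups did not overlap, though cKO replicate 1 was close to fl/fl replicates 1 and 2, and fl/fl replicate 3 stood above all others. Its log2 fold change was -0.65 (SE 0.19, limma adjusted p = 0.280), and -0.48 without fl/fl replicates 1 and 3.

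The larger fold changes were those of less abundant members. *Adam3* (cyritestin, ENSMUSG00000031553, chr8:24677225-24725852, minus strand), the ADAM that mouse sperm need to enter the oviduct and to bind the zona pellucida, had 4.25, 5.53, 8.79 and 5.68 FPKM in the fl/fl libraries against 3.10, 3.81, 2.68 and 2.28 FPKM in the cKO libraries. Every cKO library was lower than every fl/fl library, on 114 to 179 fragments per cKO library and 164 to 404 per fl/fl library. The fl/fl mean of 6.06 ± 1.92 was 2.04 times the cKO mean of 2.97 ± 0.653 (SD, n = 4 each). An exact two-sided permutation test gave p = 0.0286, the lowest that groups of 4 can reach. Its log2 fold change was -0.98 (SE 0.22, limma adjusted p = 0.172), and -0.92 without fl/fl replicates 1 and 3. *Adam18* (ENSMUSG00000031552, chr8:24602246-24674755, minus strand), another non-catalytic sperm ADAM, had 2.13, 1.14, 2.22 and 1.32 FPKM in the fl/fl libraries against 0.830, 0.637, 0.553 and 0.624 FPKM in the cKO libraries. These groups did not overlap either, and the fl/fl libraries fell into a higher and a lower pair. The fl/fl mean was 2.58 times the cKO mean, on 22 to 82 fragments per library (p = 0.0286 in the same exact permutation test). On the log2 scale this was -1.21 (SE 0.24, limma adjusted p = 0.129 in the wider fit), the largest difference of the 21 members, and -0.82 without fl/fl replicates 1 and 3.

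The testis-restricted members encoded in 1 or 2 exons were less alike. *Adam1b* (ENSMUSG00000062438, chr5:121500098-121503435, minus strand), a fertilin alpha subunit, had 2.90, 2.21, 3.81 and 2.61 FPKM in the fl/fl libraries against 1.89, 2.16, 2.01 and 2.06 FPKM in the cKO libraries. The cKO libraries lay close together below all fl/fl libraries, though cKO replicate 2 and fl/fl replicate 2 nearly met. The log2 fold change was -0.46 (SE 0.17, limma adjusted p = 0.368), and -0.24 without fl/fl replicates 1 and 3. Its near copy *Adam1a*, the other fertilin alpha subunit, had 0.383 to 0.723 FPKM in the fl/fl libraries against 0.513 to 0.651 FPKM in the cKO libraries. A run of 1082 bases is identical in the coding sequences of *Adam1a* and *Adam1b*, so the split of fragments between them is uncertain. *Adam4* (ENSMUSG00000072972, chr12:81419443-81421946, minus strand), a testis ADAM in which 3 of the 5 fixed residues of the zinc site are kept, had 0.853, 0.396, 0.307 and 0.658 FPKM in the fl/fl libraries against 0.165, 0.350, 0.189 and 0.165 FPKM in the cKO libraries. Only cKO replicate 2 reached into the fl/fl range, and all values rest on 7 to 28 fragments. The log2 fold change of *Adam4* was -0.999 (SE 0.31, limma adjusted p = 0.288 in the wider fit). *Adam30*, with the complete motif, had 1.54 to 2.23 FPKM in the fl/fl libraries against 1.30 to 1.83 FPKM in the cKO libraries. *Adam21* had 2 to 8 fragments per library, and its log2 fold change of -0.42 was not detectable at this depth.

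Divided by the zinc motif, the 6 testis-restricted members without it that passed the wider filter (*Adam2*, *Adam3*, *Adam4*, *Adam5*, *Adam18* and *Adam32*) were all below 0, with a median log2 fold change of -0.87, and 5 of them had an unadjusted p below 0.05, where 4.86% of all genes were lower at that p. The 4 with the motif (*Adam1a*, *Adam1b*, *Adam21* and *Adam30*) had a median of -0.32, and 1 had an unadjusted p below 0.05. Of those without the motif, *Adam3*, *Adam5*, *Adam18* and *Adam32* are neighbours on chromosome 8, so for them lack of the motif and position cannot be told apart. With so few members, of which *Adam1a* and *Adam1b* may share fragments, this division is given as a description.

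*Adam18*, *Adam3*, *Adam5*, *Adam32* and *Adam9* stand side by side on the minus strand of chromosome 8, within 414682 bases. Only 2469 bases lie between *Adam18* and *Adam3*, 1240 between *Adam3* and *Adam5*, 11770 between *Adam5* and *Adam32*, and 806 between *Adam32* and *Adam9*. The block holds 4 of the testis-restricted members described above beside a widely expressed one with a complete zinc site. In pairwise comparison the aligned proteins of these 5 genes and *Adam2* were identical at 30.4% to 40% of residues. Their coding sequences shared no identical run of 20 or more bases in which fragments could be confused. The untranslated parts of their transcripts were not compared.

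In the wider fit the log2 fold changes along the block were -1.21, -0.98, -0.76 and -0.65 from *Adam18* to *Adam32*, and 0.03 for *Adam9*. *Adam9*, a ubiquitous sheddase, had 9.12, 8.36, 9.33 and 9.65 FPKM in the fl/fl libraries against 8.96, 9.10, 9.22 and 9.83 FPKM in the cKO libraries. The groups overlapped (SE 0.09, limma adjusted p = 0.942 with the filter of the study). Beyond *Adam9* the neighbour *Tm2d2* had a log2 fold change of -0.16 (limma adjusted p = 0.765) and *Tacc1* one of 0.03 (limma adjusted p = 0.934). Between these 2 genes lay *Htra4* at -0.28 (limma adjusted p = 0.745) and *Plekha2* at 0.17 (limma adjusted p = 0.811). On the other side of the block *Tcim* had a log2 fold change of 0.38 (limma adjusted p = 0.647), and *Ido1* and *Ido2* had at most 3 fragments in any library. Taken as a ratio to *Adam9* in the same library, which removes the scale of the library, log2 *Adam3* per *Adam9* was -1.08 to -0.09 in the fl/fl libraries and -2.06 to -1.23 in the cKO libraries. For *Adam18* this log2 ratio was -2.78 to -2.02 in the fl/fl libraries and -3.84 to -3.28 in the cKO libraries. For *Adam32* it was 0.43 to 1.25 and -0.22 to 0.38. In these 3 ratios the groups did not overlap, and for *Adam5* they did (1.66 to 2.45 and 0.71 to 1.74). Since *Adam9* itself stayed within 8.36 to 9.83 FPKM, these ratios largely repeat the members' own values and add no separate evidence. Taken as a ratio to *Adam2*, a testis-restricted member on another chromosome, the groups overlapped for *Adam3*, *Adam5* and *Adam32*. Whether *Adam2* and the block are made by the same cells was not tested. Only log2 *Adam18* per *Adam2* stayed apart, at -5.56 to -5.05 in the fl/fl libraries and -6.42 to -5.86 in the cKO libraries.

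**Figure D3:**
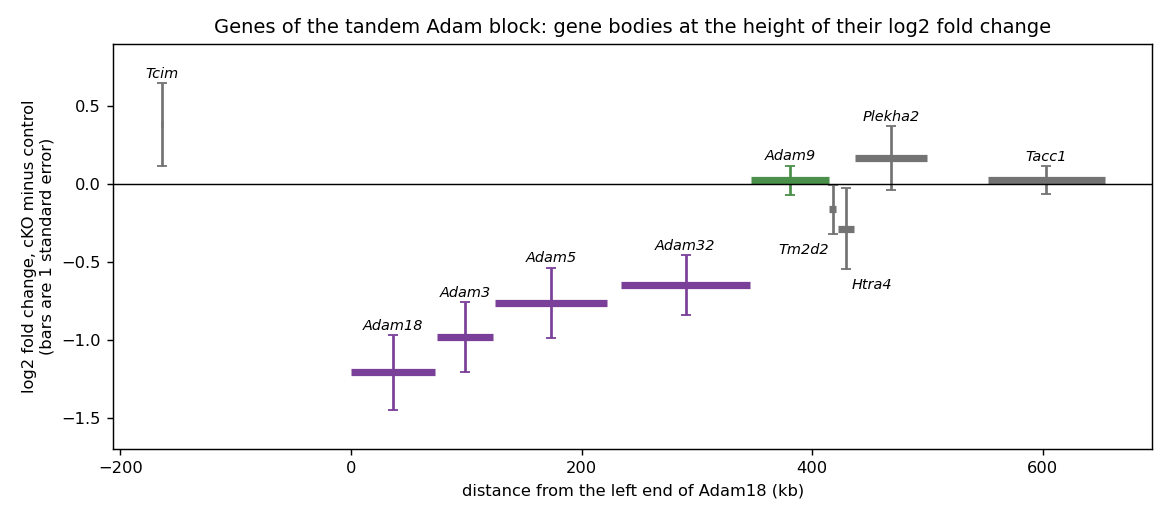
Genes of the tandem Adam block and its neighbours that passed the wider filter, drawn as their gene bodies (horizontal bars, distance in kb from the left end of Adam18) at the height of their log2 fold change, cKO minus control, with 1 standard error; testis-restricted members are purple, Adam9 is green and other genes grey. Adam18, Adam3, Adam5 and Adam32 lie between -1.21 and -0.65, while Adam9, which starts 806 bases on, lies at 0.03.

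In the other widely expressed sheddases the groups overlapped as well, and none reached an unadjusted p below 0.05. *Adam10* (ENSMUSG00000054693, chr9:70678997-70780229, plus strand) had 20.2, 25.3, 27.7 and 31.4 FPKM in the fl/fl libraries against 25.8, 31.4, 29.8 and 32.6 FPKM in the cKO libraries. Fl/fl replicate 1 was lowest, and the other values interleaved. The log2 fold change of *Adam10* was 0.21 (SE 0.14, limma adjusted p = 0.654). *Adam17* (TACE, ENSMUSG00000052593, chr12:21323509-21373632, minus strand), which releases TNF and ligands of the EGF receptor, had 14.2, 11.3, 12.6 and 12.7 FPKM in the fl/fl libraries against 11.4, 11, 11.5 and 12.1 FPKM in the cKO libraries. Again fl/fl replicate 1 was at the edge, here as the highest, and the log2 fold change was -0.14 (SE 0.10, limma adjusted p = 0.666). *Adam15* (ENSMUSG00000028041, chr3:89338542-89349996, minus strand), an ADAM of endothelial and other adherent cells, had 8.98, 5.65, 5.29 and 5.34 FPKM in the fl/fl libraries against 6.44, 5.55, 5.86 and 6.99 FPKM in the cKO libraries. Its fl/fl mean was set by replicate 1, and the log2 fold change was 0.01 (SE 0.17, limma adjusted p = 0.992). *Adam8*, an ADAM of leukocytes, and *Adam11* had means of 1.26 to 2.27 FPKM, and *Adam22*, *Adam19*, *Adam23*, *Adam12* and *Adam33* means of 0.167 to 0.857 FPKM. In all 7 the groups overlapped, with log2 fold changes of -0.22 (*Adam11*) to 0.41 (*Adam12*).

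Other genes of the pathway were taken from 3 fixed lists. ADAM3 reaches the sperm surface only through a set of endoplasmic reticulum chaperones and partner proteins. Of 15 such maturation factors 11 passed the wider filter, with a median log2 fold change of -0.04, and at an unadjusted p below 0.05 there were 2 lower (4.86% of all genes were), 1 higher (6.23% were) and none past adjustment. The most abundant was *Tex101*, a germ cell surface protein that binds ADAMs, at 269, 342, 405 and 245 FPKM in the fl/fl libraries against 401, 285, 342 and 252 FPKM in the cKO libraries, without separation of the groups. *Clgn* (calmegin), the chaperone of fertilin assembly, had 194, 144, 162 and 142 FPKM in the fl/fl libraries against 177, 126, 129 and 107 FPKM in the cKO libraries. The groups overlapped there as well, with a log2 fold change of -0.27 (SE 0.18, limma adjusted p = 0.631 in the wider fit).

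Both lower genes were members of 1 family of membrane proteins that lie side by side. *Cmtm2b* had 6.76, 7.02, 12.9 and 5.69 FPKM in the fl/fl libraries against 2.58, 5.27, 3.30 and 2.54 FPKM in the cKO libraries, without overlap. Its log2 fold change was -1.21 (SE 0.28, limma adjusted p = 0.170 in the wider fit). *Cmtm2a* had 6.0, 5.85, 9.61 and 6.09 FPKM in the fl/fl libraries against 4.26, 6.25, 2.94 and 2.73 FPKM in the cKO libraries, with cKO replicate 2 inside the fl/fl range. The log2 fold change of *Cmtm2a* was -0.80 (SE 0.26, limma adjusted p = 0.312 in the wider fit). The higher gene was *Ace*, the angiotensin-converting enzyme, which testis makes in a germ cell form and endothelium in a somatic form that the gene-level value does not separate. It had 1.69, 2.81, 1.85 and 3.20 FPKM in the fl/fl libraries against 3.91, 3.68, 3.58 and 4.80 FPKM in the cKO libraries. Every cKO library was higher, with a log2 fold change of 0.76 (SE 0.21, limma adjusted p = 0.236 in the wider fit). *Prss55* was at 0 in all libraries.

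Regulators of the sheddases include their inhibitors (TIMPs and *Reck*), the proprotein convertases that remove the prodomain, and the tetraspanins and iRhoms that escort ADAM10 and ADAM17. All 16 on the list passed the wider filter, with a median log2 fold change of 0.10. At an unadjusted p below 0.05, 5 were higher in the cKO libraries, where 6.23% of all genes were, and 0 were lower, and none passed adjustment. *Timp1*, a secreted inhibitor of metalloproteases, had 1.12, 0.683, 1.01 and 1.10 FPKM in the fl/fl libraries against 2.15, 2.68, 2.60 and 3.71 FPKM in the cKO libraries. Its log2 fold change of 1.42 was the largest of the list (SE 0.21, limma adjusted p = 0.0883 in the wider fit). *Timp2*, the most abundant of these genes, had 39.2, 48.2, 46.5 and 43.9 FPKM in the fl/fl libraries against 48.8, 58.8, 60.5 and 62.6 FPKM in the cKO libraries. For *Timp2* the log2 fold change was 0.37 (SE 0.12, limma adjusted p = 0.284 in the wider fit). *Furin*, the main convertase, had 14.5, 13.8, 12.6 and 13.2 FPKM in the fl/fl libraries against 14.9, 16.4, 16.5 and 18.6 FPKM in the cKO libraries. *Rhbdf1* (iRhom1), a partner of ADAM17, had 1.5, 1.63, 1.22 and 1.57 FPKM in the fl/fl libraries against 2.01, 1.93, 2.50 and 2.75 FPKM in the cKO libraries. In *Timp1*, *Timp2*, *Furin* and *Rhbdf1* alike every cKO library was above every fl/fl library. Over all genes of the wider fit this was so for 602 of 15937. *Tspan15*, an escort of ADAM10, had 0.932, 0.775, 0.923 and 0.910 FPKM in the fl/fl libraries against 1.30, 1.20, 1.04 and 1.35 FPKM in the cKO libraries, again without overlap. *Furin*, *Rhbdf1* and *Tspan15* had log2 fold changes of 0.29, 0.59 and 0.42 (limma adjusted p = 0.330, 0.243 and 0.387 in the wider fit). *Tspan17*, second in abundance, had 41.4, 24.9, 27.6 and 23.1 FPKM in the fl/fl libraries against 25.1, 28.9, 31.4 and 34.5 FPKM in the cKO libraries, which overlapped.

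Of 14 membrane proteins known to be cut by ADAM10 or ADAM17, 12 passed the wider filter. Their median log2 fold change was 0.12, with 3 higher, where 6.23% of all genes were, and 0 lower at an unadjusted p below 0.05 and none past adjustment. *Prnp*, the prion protein, had 10.3, 12.7, 13.0 and 11.7 FPKM in the fl/fl libraries against 17, 16.7, 18.7 and 20.4 FPKM in the cKO libraries, without overlap. Its log2 fold change was 0.61 (SE 0.11, limma adjusted p = 0.110 in the wider fit). *Cx3cl1*, a membrane-bound chemokine that attracts macrophages, had 2.00, 3.51, 2.77 and 3.25 FPKM in the fl/fl libraries against 4.07, 5.21, 4.53 and 5.11 FPKM in the cKO libraries, also without overlap. The difference for *Cx3cl1* was 0.72 on the log2 scale (SE 0.18, limma adjusted p = 0.176 in the wider fit). *Il6ra*, a subunit of the interleukin-6 receptor, had 1.47, 1.97, 1.38 and 2.09 FPKM in the fl/fl libraries against 2.45, 2.23, 1.99 and 2.41 FPKM in the cKO libraries, where cKO replicate 3 lay within the fl/fl range. The most abundant substrates were *Epcam* at 38.8, 32.9, 35.6 and 29.2 FPKM in the fl/fl libraries against 35.0, 26.9, 35.9 and 37.9 FPKM in the cKO libraries, and *App* at 22.5, 23.1, 22.3 and 26.0 FPKM against 25.4, 26.6, 26.4 and 30.8 FPKM. Neither reached an unadjusted p below 0.05.

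The level of cell stage and cell type markers is given beside these genes, and no marker passed adjustment. The 12 mid-late pachytene genes had a median log2 fold change of -0.26, with 11 below 0, and summed to 1116 to 1715 FPKM in the fl/fl libraries (highest in replicate 3) and 841 to 1298 FPKM in the cKO libraries (highest in replicate 1). At an unadjusted p below 0.05, 3 of them were lower (*Ccna1*, *Ldhc* and *Piwil1*), against 4.86% of all genes, and 1 was higher (*Hist1h1t*, on 3 to 13 fragments per library), against 6.23%. In the 10 early meiotic prophase genes the median was -0.09 and the sums were 576 to 681 and 500 to 767 FPKM. Of these, *Meiob* was higher (0.69) at an unadjusted p below 0.05 in the wider fit, without overlap of the groups, and 0 were lower. The 10 spermatogonia genes had a median of 0.13, with 8 above 0, and summed to 246 to 340 FPKM in the fl/fl libraries against 326 to 342 FPKM in the cKO libraries. At an unadjusted p below 0.05, *Stra8*, a gene switched on by RA, was lower (-1.46) and *Dmrtb1* higher (0.51), each with overlap between the groups. All libraries were also centred on the pachytene list, which moved the median of all genes to 0.24 in the wider fit. The testis-restricted median was then -0.33 and the widely expressed median 0.32. After this centring 4 of 21 members were lower at an unadjusted p below 0.05, and the share of all genes lower was not counted. Round spermatid genes summed to 5.53 to 13.5 FPKM in the fl/fl libraries against 6.59 to 8.79 FPKM in the cKO libraries, with *Catsper1* at 0. All 6 macrophage genes were above 0, with a median of 0.74 and sums of 14 to 29.3 and 32.1 to 43.9 FPKM, which did not overlap. The 6 Leydig genes (median 0.59) summed to 16.5 to 37.9 and 28.6 to 46.7 FPKM. The 6 peritubular genes (median 0.28) summed to 45.6 to 76.6 and 75.4 to 105 FPKM, and the 6 endothelial genes (median 0.36) to 11.3 to 20.6 and 19.0 to 23.8 FPKM. Sertoli genes had a median of 0.16. At an unadjusted p below 0.05 in the wider fit, 4 macrophage, 3 Leydig, 2 endothelial and 1 peritubular genes were higher, against 6.23% of all genes. In these 4 lists and in the Sertoli list 0 were lower, against 4.86%. The 8 epididymal genes summed to at most 0.761 FPKM in any library, with *Gpx5* at 0, beside *Adam7* at 0 and *Adam28* at no more than 1 fragment. The part of these cell types in the differences of the ADAM genes, their regulators and their substrates was not tested.

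**Figure D4:**
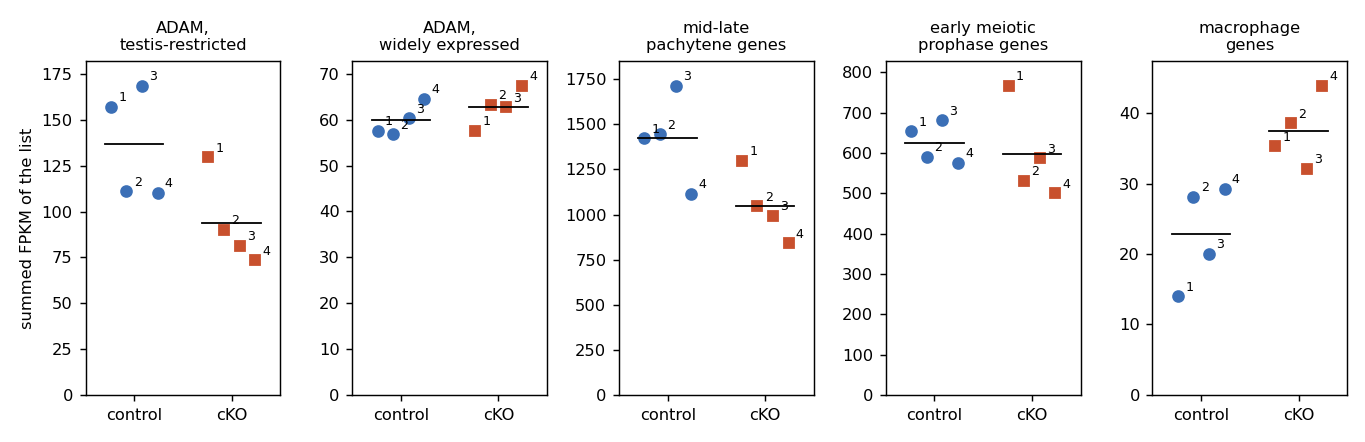
Summed FPKM of 5 gene lists in each library (circles, control; squares, cKO; small numbers give the replicate; bars are group means; each axis starts at 0). The testis-restricted ADAM sum was 110 to 169 in the controls and 73.6 to 130 in the cKO libraries, beside 1116 to 1715 and 841 to 1298 for the mid-late pachytene genes and 14 to 29.3 and 32.1 to 43.9 for the macrophage genes.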

How the data were processed

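Testis RNA of 8 mice, 4 per genotype, was sequenced as paired ends. The authors deposited FPKM values, made by a sequencing company's software, for 54532 genes in 1 table and again per library, with equal values in all 8 libraries. The submitters' processing notes name GRCm38 and mm10, and the aligner and counter are not given in the sources used here. Whether counting used strand is not given either. Scaled back by gene length, 100% of values above 0 were whole numbers of fragments (tolerance 0.02), giving 13978342 to 19583091 fragments per library. Floors cover counting error only.

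The groups were compared with limma 3.58.1 in R 4.3.3 (trended eBayes, no covariates) on log2(FPKM + 0.1), and single genes with an exact permutation test over the 70 assignments of 8 libraries. The procedure was tested on simulated data. Coding sequences came from GENCODE vM21 and proteins were aligned with mafft 7.526. Figures were drawn with matplotlib 3.10.9. Each library is from a separate mouse.

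The members and all lists were chosen with earlier results of these data known. Values in every library are given for members with an unadjusted p below 0.05 in either fit, testis-restricted members with a mean above 5 FPKM, *Adam9*, *Adam10*, *Adam15* and *Adam17*, and, of the 3 pathway lists, genes with an unadjusted p below 0.05 and the 2 with the highest mean. Other genes are named for cell type, position or a small count, after their values were seen. Alternatives were other pseudocounts, filters, biotypes, centring and scaling, array weights, an untrended eBayes, voom on recovered fragments, a replicate block, and each library left out. Between libraries with the same number, deviations from the group means had correlations of 0.0757 to 0.406, with 1 pair under 0.1. Between libraries with different numbers they were -0.474 to 0.162, so same-number values tended to be higher. The study used littermate controls, but neither it nor the labels says that a number marks a litter. The main fits therefore do not pair mice, and the replicate block gives the paired alternative.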

Additional observations from a re-analysis of the deposited data

Results flagged for a closer look

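Of 42 groups of 4 libraries in which a member's FPKM was checked for a library far from the other 3, 5 were marked, where chance marks about 1 in 20 groups (2.1 here). *Adam32* was 22.3 FPKM in fl/fl replicate 3 and 12.3 to 13.8 in the other fl/fl libraries. *Adam15* was 8.98 FPKM in fl/fl replicate 1, against 5.29 to 5.65. *Adam4* was 0.350 FPKM in cKO replicate 2, against 0.165 to 0.189, and *Adam21* was 0.151 FPKM in the same library, against 0.0405 to 0.0532, both on few fragments. *Adam33* was 0.225 FPKM in fl/fl replicate 2, against 0.141 to 0.154.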

How the results depend on the processing

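No ADAM member was called DE under any alternative run except array weights, with 1 call and 3 members at an adjusted p below 0.05. Array weights were run only with the filter of the study, which *Adam18* and *Adam4* do not pass. The share of all genes that passed with these weights was not counted. The count of members lower at an unadjusted p below 0.05 (4 of 12) was 2 where both groups had to exceed a mean of 5 FPKM. That filter removed *Adam3* and *Adam1b* and left the fold changes of *Adam5* and *Adam32* as they were. Without fl/fl replicates 1 and 3 the count was also 2. With each library left out in turn it was 3 to 5, and with the wider filter 5 to 7, beside 0 to 1 higher. The 1 higher call came without cKO replicate 1. The share of all genes lower was not counted for the runs with libraries left out or with the replicate block. The replicate block treats equal numbers as pairs. It gave 5 lower members with the filter of the study and 7 with the wider one, and 0 called. With it the SE of *Adam2* was 0.11 and its limma adjusted p 0.193, against 0.23 and 0.591 without it. The testis-restricted median stayed below 0 under every alternative run. The replicate block, the untrended eBayes and the fit over all biotypes keep the fold changes as they are, so they could not move it. With single libraries left out it was -0.67 to -0.39 with the filter of the study and -0.73 to -0.45 with the wider one. Centring on pachytene genes moved the median of the wider fit to -0.33. The widely expressed median (0.02) was 0.10 with a mean FPKM above 0.1, 0.10 with no filter, 0.16 after rescaling to TPM and 0.24 after centring on pachytene genes, which admit more genes or shift all of them. With single libraries left out it was -0.03 to 0.05. In the wider fit (0.10) that median was 0.32 after the same centring, 0.018 without fl/fl replicates 1 and 3, and 0.065 to 0.20 with single libraries left out, highest without fl/fl replicate 2. Centring on pachytene genes and leaving out 2 libraries together were added after seeing the data. Members at 2 to 28 fragments (*Adam21*, *Adam4*) limit what depth can show, and 4 libraries a group cannot give an exact p below 0.0286.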
